A study of Homo sapiens with 12 samples.

Results

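Transcripts of 9 genes of the acute phase response and the complement system were followed in 2 human uveal melanoma cell lines, OCM1 and MUM2B, each with and without overexpression of the long noncoding RNA CANT1. The 9 genes were SERPINA3, A2M, C1R, C1S, C3, CFB, CFI, LCN2 and SAA1, out of 18132 genes that had a probe set of their own on the array. Their Gene IDs, in that order, are 12, 2, 715, 716, 718, 629, 3426, 3934 and 6288. The list was chosen by earlier values of these arrays, with the large CANT1 differences of SERPINA3 and A2M in OCM1 known. The values of the CANT1 contrast in OCM1 are therefore given as a description, without p-values for single genes, and the same holds for the contrasts built on it. Counts of calls in those contrasts stand beside the share over all genes, and nothing is read from them. Each gene was read from the probe set annotated to it alone with the highest mean signal over all arrays, and its other probe sets, where there were any, served as a check. A2M, C1S, C3, LCN2 and SAA1 had 1 such probe set each, so no such check was possible for them.

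The 4 groups were OCM1 cells with CANT1 (CASC15-New-Transcript 1) overexpressed, wild type OCM1 cells, MUM2B cells with CANT1 overexpressed and wild type MUM2B cells, with 3 Affymetrix arrays of total RNA each. The control arrays of replicate 1 were labelled wild type and those of replicates 2 and 3 were labelled control. All of them are called wild type here, and the labels describe no empty vector and no clones. For the replicate 1 arrays the growth label names puromycin selection of the overexpressing cells, and for replicates 2 and 3 it names DMEM with 10% serum, so each group consists of 1 and 2 arrays grown under different labels. The labels do not say that replicates are separate cultures, so p-values measure the spread between arrays only, which may be technical. Values are scaled signals (arbitrary intensity units, with a 2% trimmed mean of 500 on every array), and differences are differences in log2(scaled signal + 32), which understates the fold of dim genes.

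The 4 replicate 1 arrays stood apart from the other 8. Their ACTB 3′ to 5′ probe set difference, a sign of RNA or labelling quality, was 2.15 to 2.51 on the log2 scale, against 0.47 to 0.91 on replicates 2 and 3. Replicate 1 of OCM1 wild type also stood apart from its own line, with a mean correlation of 0.824 across genes, against 0.935 to 0.977 for the other 11 arrays. Each OCM1 array had 12 of the 13 melanocyte markers measured at a signal of at least 100, but not the same 12. The marker below 100 was EDNRB (78.5) on replicate 1 of wild type and OCA2 (75.9 to 90.7) on the other OCM1 arrays. The summed signal of the 13 was 89523 to 103458 with CANT1 and 16583 to 93053 in wild type, the lowest being replicate 1. Only 4 to 6 of these markers reached 100 on MUM2B arrays. PMEL at 117 to 166, TYR at 102 to 148, MITF at 118 to 161 and RAB38 at 1063 to 1465 did so on all 6, while MLANA was at 36.3 to 55.5 and TYRP1 at 19.0 to 21.8. Summed epithelial markers were at 2158 to 2813 on OCM1 arrays and 16311 to 23857 on MUM2B arrays, and endothelial markers at 581 to 746 and 2927 to 5252. Few genes made up most of these differences: KRT8 (46.1 to 119 and 2929 to 7929), KRT18 (1215 to 1708 and 11587 to 15101) and CDH5 (46.6 to 87.3 and 2385 to 4634). EPCAM, CDH1, TEK, EMCN and CLDN5 were below 100 on all arrays. ESRP1 was at 40.4 to 311 in OCM1 and 27.0 to 40.5 in MUM2B, and VWF at 151 to 210 and 112 to 226. Fibroblast markers were at 552 to 1877 on OCM1 and 565 to 807 on MUM2B arrays, and leukocyte markers at 697 to 1201 and 654 to 1010. Of the fibroblast markers, LUM was at 62.2 to 1437 in OCM1 and 22.4 to 37.4 in MUM2B, and FAP at 33.2 to 124 and 198 to 379. In OCM1, TYRP1, a pigment enzyme gene, had signals of 16138, 2664 and 3789 on CANT1 replicates 1, 2 and 3, against 922, 13590 and 14005 on wild type. The single probe set of CASC15, the locus that CANT1 belongs to, was at 12.9 to 17.9 on all 12 arrays. Whether it lies within CANT1 is not known here, so it gives no check of the overexpression.

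As background, the acute phase response is the change in secreted plasma proteins that follows infection or injury. Interleukin-6 acting through STAT3, and interleukin-1 and tumour necrosis factor acting through NF-κB, with C/EBP proteins, switch on its genes, mainly in the liver. SERPINA3 (alpha-1-antichymotrypsin) and A2M (alpha-2-macroglobulin) are secreted inhibitors of proteases. In complement, C1R and C1S are the proteases of the C1 complex that starts the classical pathway, C3 is the central component, CFB is the protease of the alternative pathway and CFI is the protease that inactivates C3b and C4b. LCN2 binds bacterial siderophores and SAA1 is a serum amyloid A protein of high density lipoprotein.

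RefSeq promoter sequences (GRCh38.p14) matched 5 of the 9 genes: SERPINA3, CFB, CFI, C1R and LCN2. The 250 bases before the start are shown for 4 of them, because their members range from the largest CANT1 difference (SERPINA3) through small ones (C1R, CFB) to a signal below 100 on every array (LCN2). They lie at chr14:94612141-94612390, plus strand, chr12:7092446-7092695, minus strand, chr6:31945845-31946094, plus strand and chr9:128149203-128149452, plus strand. Capitals mark matches, on either strand, to 5 motifs: GGNNNTTCC for NF-κB, TTCNNNGAA for STAT, TTNNGNAA for C/EBP, TGANTCA for AP-1 and GAAANNGAA for interferon-stimulated response elements.
SERPINA3: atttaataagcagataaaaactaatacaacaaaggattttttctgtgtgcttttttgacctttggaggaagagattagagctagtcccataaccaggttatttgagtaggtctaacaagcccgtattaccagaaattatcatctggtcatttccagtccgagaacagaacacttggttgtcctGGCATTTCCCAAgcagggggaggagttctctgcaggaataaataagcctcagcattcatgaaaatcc
C1R: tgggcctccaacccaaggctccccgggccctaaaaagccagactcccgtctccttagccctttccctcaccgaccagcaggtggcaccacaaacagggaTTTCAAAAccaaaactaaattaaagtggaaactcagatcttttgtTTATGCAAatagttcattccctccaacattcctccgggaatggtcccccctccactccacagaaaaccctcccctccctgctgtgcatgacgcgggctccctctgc
CFB: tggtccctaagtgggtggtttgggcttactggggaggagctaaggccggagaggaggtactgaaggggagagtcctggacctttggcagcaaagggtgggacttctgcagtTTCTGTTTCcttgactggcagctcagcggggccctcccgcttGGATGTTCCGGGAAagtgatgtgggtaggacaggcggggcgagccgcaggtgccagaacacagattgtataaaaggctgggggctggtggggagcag
LCN2: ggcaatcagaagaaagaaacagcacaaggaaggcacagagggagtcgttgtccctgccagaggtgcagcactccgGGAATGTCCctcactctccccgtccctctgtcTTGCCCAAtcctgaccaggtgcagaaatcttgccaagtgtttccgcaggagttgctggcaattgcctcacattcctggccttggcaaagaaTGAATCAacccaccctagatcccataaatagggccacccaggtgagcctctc

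The SERPINA3 sequence held an NF-κB match at 67 to 59 bases before the start and a C/EBP match at 63 to 56 bases that overlapped it. The C1R sequence held 2 C/EBP matches, at 151 to 144 and 106 to 99 bases. In the CFB sequence an NF-κB match at 97 to 89 bases overlapped a STAT match at 92 to 84 bases, and an interferon-response match lay at 139 to 131 bases. LCN2 held an NF-κB match at 175 to 167 bases, a C/EBP match at 143 to 136 bases and an AP-1 match at 52 to 46 bases. Among 35116 RefSeq promoters of the same length, 17.1% held the NF-κB letters, 33.2% the C/EBP letters, 6.57% the STAT letters, 6.57% the AP-1 letters and 6.88% the interferon-response letters. A match describes the letters only.

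Of the 9 genes, SERPINA3 had the largest CANT1 difference in OCM1. Its scaled signal was 345, 18414 and 13187 on replicates 1, 2 and 3 of OCM1 with CANT1, against 138, 432 and 311 on wild type OCM1. In MUM2B it was 70.5, 61.1 and 93.5 with CANT1, against 87.9, 65.8 and 78.0 in wild type. Replicates 2 and 3 of OCM1 with CANT1 were far above every other array, while replicate 1 of that group lay between the wild type OCM1 arrays, so the OCM1 groups overlapped. All 6 OCM1 arrays lay above all 6 MUM2B arrays, which were below 100. The OCM1 difference on replicates 2 and 3 was 5.29 ± 0.19 on the log2 scale (standard error, limma), a 39.1-fold ratio of signal plus 32. On replicate 1 it was 1.15, in the same direction, with no test. The second probe set of SERPINA3 had 213, 10766 and 8147 in OCM1 with CANT1, against 114, 209 and 236 in wild type, and there the replicate 1 array with CANT1 again lay within the wild type range.

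A2M had a similar but smaller pattern. Its signal was 563, 4103 and 3260 in OCM1 with CANT1, against 361, 591 and 546 in wild type OCM1. In MUM2B it was 40.8, 32.4 and 32.9 with CANT1, against 44.0, 42.2 and 29.2 in wild type. Replicate 1 with CANT1 fell below replicate 2 of wild type, so the OCM1 groups overlapped, while no MUM2B array came near any OCM1 array. The difference in OCM1 was 2.62 ± 0.13, a 6.15-fold ratio, on replicates 2 and 3 and 0.60 on replicate 1.

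**Figure D1:**
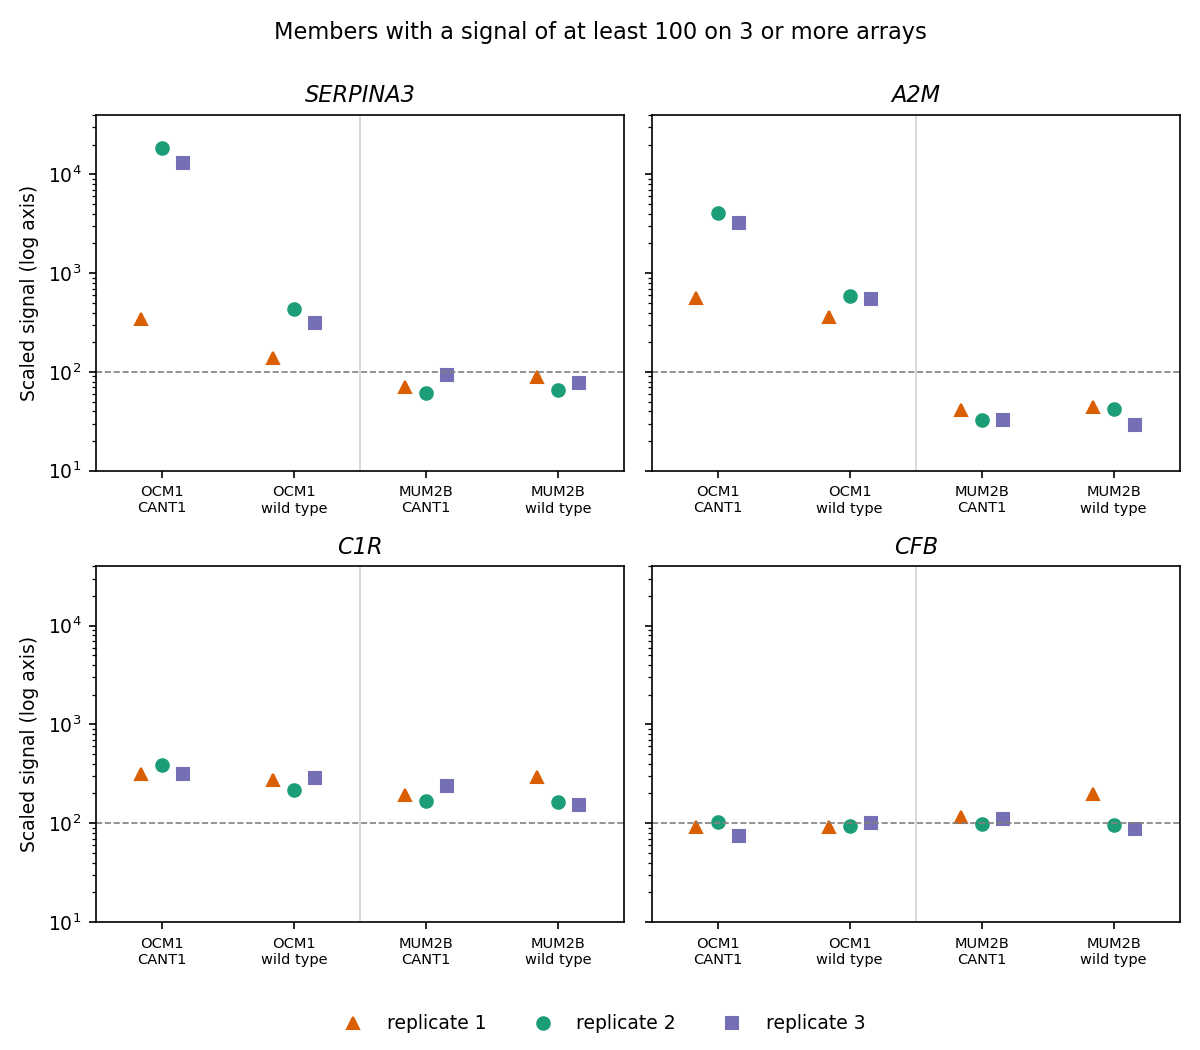
Scaled signal (log axis) of the 4 genes that passed the signal filter, on each array of the 4 groups; symbols give the replicate and the dashed line a signal of 100. SERPINA3 reached 13187 and 18414 on replicates 3 and 2 of OCM1 with CANT1 and stayed below 100 on every MUM2B array, while C1R was at 153 to 388 and CFB at 75.1 to 197 on all 12 arrays.

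C1R, the protease that activates C1S, was detected at a signal of at least 100 on all 12 arrays. Its values were 318, 388 and 314 in OCM1 with CANT1, against 274, 219 and 290 in wild type OCM1. In MUM2B they were 194, 168 and 241 with CANT1, against 291, 162 and 153 in wild type. The OCM1 groups did not overlap, with all 3 CANT1 arrays higher, and the MUM2B groups did. How many of all genes separate in this way was not counted, so here and for the genes below it is a description only. The OCM1 difference was 0.42 ± 0.16 on replicates 2 and 3 and 0.19 on replicate 1, and it did not pass on replicates 2 and 3 or on all 12 arrays. It passed on replicates 2 and 3 when replicate 2 or replicate 3 of MUM2B with CANT1 was left out of the fit. It also passed there on the second C1R probe set, a choice added after the data were seen, at 0.56 ± 0.13. That probe set had 254, 227 and 186 in OCM1 with CANT1, against 197, 113 and 148 in wild type, and the groups overlapped through replicate 1 of wild type. The third C1R probe set had 83.9, 92.0 and 73.1 in OCM1 with CANT1, against 84.3, 58.3 and 58.6, and overlapped through the same array. Its replicate 1 difference was −0.004. In MUM2B the C1R difference was 0.30 ± 0.16 on replicates 2 and 3 (limma adjusted p = 0.207) and −0.52 on replicate 1.

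C1S, its partner protease, did not pass the signal filter, with only 2 arrays at or above 100. It had 70.9, 92.3 and 73.5 in OCM1 with CANT1, against 128, 63.6 and 63.6 in wild type OCM1. In MUM2B it had 79.4, 62.2 and 63.9 with CANT1, against 238, 46.2 and 36.2 in wild type. In both lines replicate 1 of wild type was the highest array and replicates 2 and 3 of wild type were the lowest, so the CANT1 difference had opposite signs in the 2 labelled sets, at −0.63 and 0.26 in OCM1 and −1.28 and 0.38 in MUM2B (replicate 1, then replicates 2 and 3).

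CFB lay around the threshold of 100. It had 90.8, 103 and 75.1 in OCM1 with CANT1, against 92.5, 92.6 and 101 in wild type OCM1. In MUM2B it had 116, 98.4 and 111 with CANT1, against 197, 96.5 and 87.9 in wild type. The groups overlapped in OCM1 and in MUM2B, 5 of the 12 arrays were at or above 100, and replicate 1 of MUM2B wild type was the highest. The difference on replicates 2 and 3 was −0.10 ± 0.12 in OCM1 and 0.14 ± 0.12 in MUM2B (limma adjusted p = 0.445 for MUM2B). Its 3 other probe sets were dimmer, at 22.2 to 94.8.

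The remaining 4 genes were at low signal. C3 was at 29.2, 30.8 and 29.3 in OCM1 with CANT1, against 52.3, 24.7 and 19.9 in wild type, and at 19.3 to 41.9 in MUM2B. CFI was at 15.6 to 31.1 on 11 arrays and at 116 on replicate 1 of OCM1 wild type, the array that stood apart from its line. The second CFI probe set had 51.5 on that array and at most 35.9 elsewhere. LCN2 was at 36.9 to 86.5 and SAA1 at 13.7 to 19.0, with the groups overlapping in both lines. None of C3, LCN2 and SAA1 reached 100 on any array, and a signal this low does not show that a transcript was absent.

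**Figure D2:**
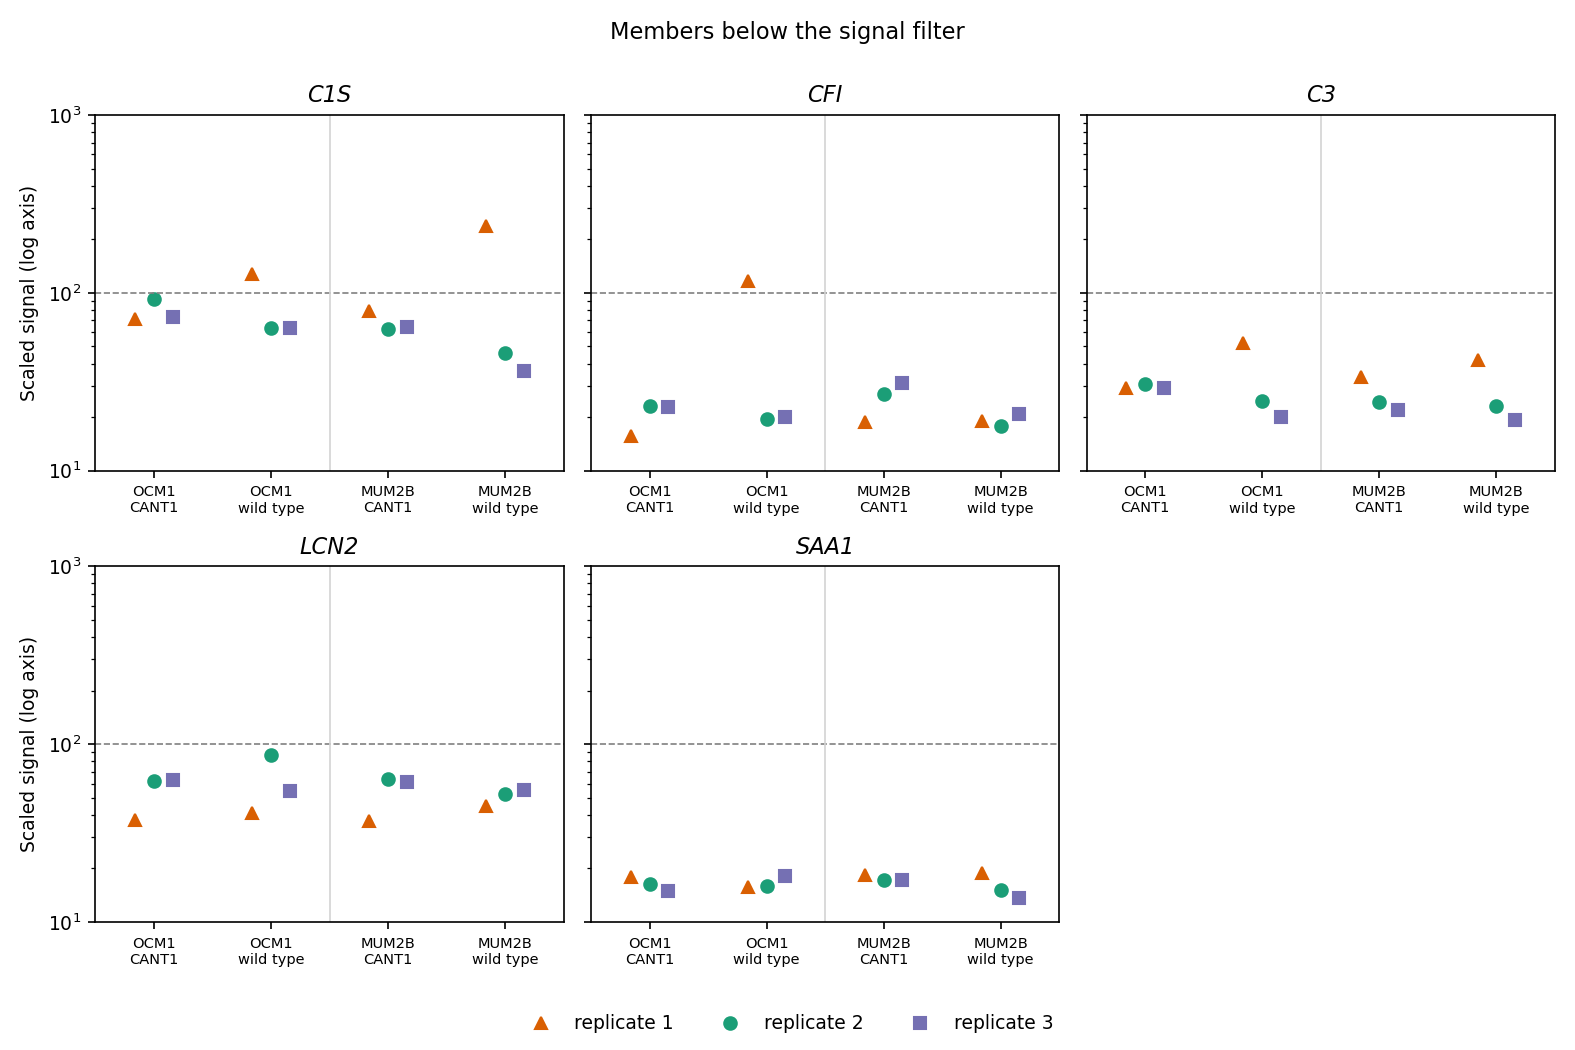
Scaled signal (log axis) of the 5 genes that did not pass the signal filter, on each array of the 4 groups; symbols give the replicate and the dashed line a signal of 100. Only C1S on replicate 1 of both wild type groups (128 in OCM1 and 238 in MUM2B) and CFI on replicate 1 of OCM1 wild type (116) were above the line.

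Over all genes, 4 of the 9 passed the filter, which asked for 3 or more arrays with a signal of 100 or above: SERPINA3, A2M, CFB and C1R. SERPINA3 and A2M passed through the OCM1 arrays alone, so a difference between the lines was bound to appear in them, and no p-value is given for it. In the limma fit of all 12 arrays, with a term for the labelled set, 0 of these 4 passed for CANT1 in OCM1, with 2 at an unadjusted p under 0.05, against 0.173% of 12715 genes called. There the SERPINA3 difference was 3.91 ± 0.98, the highest of all genes tested, and the A2M difference was 1.95 ± 0.51, the 12th highest. Without replicate 1 of OCM1 with CANT1 both passed, at 5.58 ± 0.35 and 2.79 ± 0.22. Without the array of OCM1 wild type that stood apart neither passed, at 4.08 ± 1.15 and 2.00 ± 0.60. In the fit of replicates 2 and 3 alone, 2 of the 4 passed as higher in OCM1 with CANT1, SERPINA3 and A2M, against 13.9% of 12095 genes called higher and 23.5% called in either direction. The list was chosen on this contrast, so these counts, calls and ranks are no result about it. On these replicates the ACTB 3′ to 5′ difference was 0.91 and 0.85 in OCM1 with CANT1, against 0.75 and 0.67 in wild type OCM1, and the TYRP1 signals given above also moved with the group. Their part in the results was not tested.

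In MUM2B the 12-array fit called 0 of the 4 genes, against 0% of all genes by limma, with 219 genes at an unadjusted p under 0.05. The fit of replicates 2 and 3 again called 0 of 4, with 0 at an unadjusted p under 0.05, against 25.3% of all genes. SERPINA3 differed there by 0.06 ± 0.19 and A2M by −0.06 ± 0.13, but both were below 100 on every MUM2B array and entered the fit only through the OCM1 arrays. Of the 4 genes, C1R and CFB alone had MUM2B arrays at or above 100. The CANT1 effect in OCM1 minus that in MUM2B was 5.23 ± 0.27 for SERPINA3 and 2.68 ± 0.18 for A2M on replicates 2 and 3, where 2 of 4 passed as higher, against 11.4% of all genes called higher and 22.1% in either direction, again in a contrast the list was chosen on. On all 12 arrays 0 of 4 passed for that difference by limma, with 2 at an unadjusted p under 0.05, against 0.0472% of all genes.

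**Figure D3:**
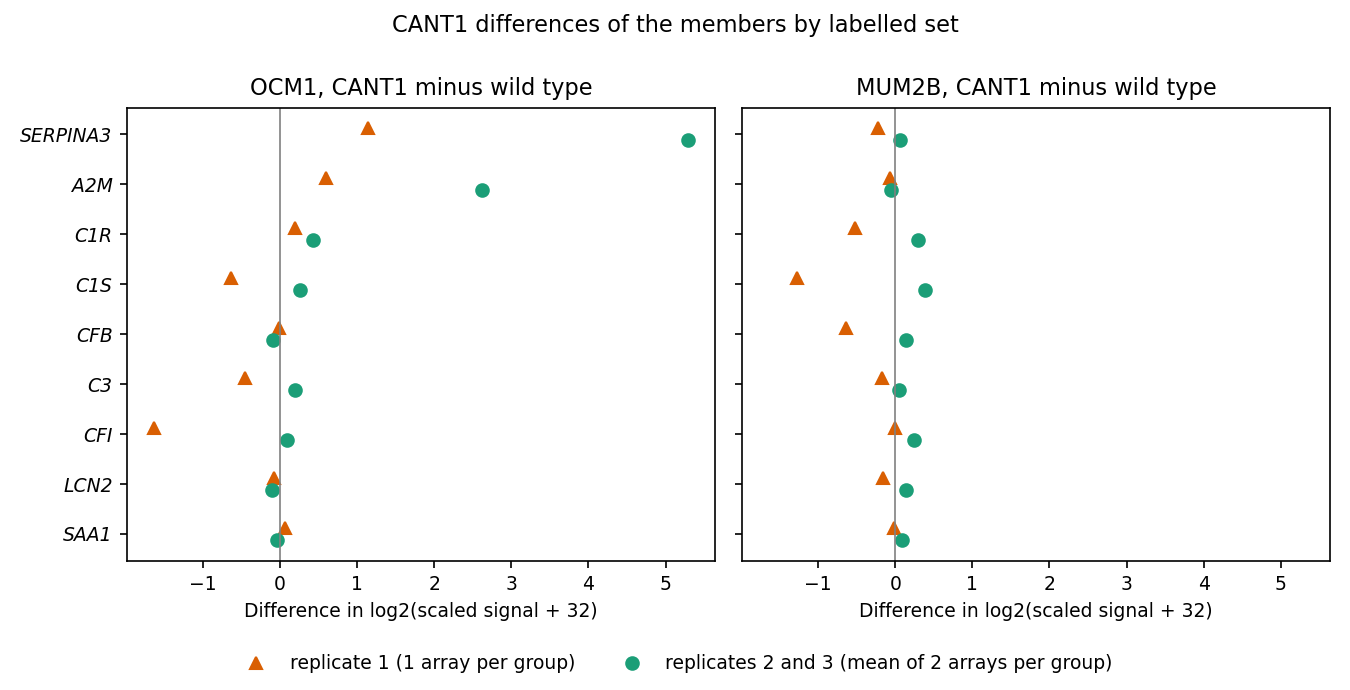
CANT1 minus wild type difference in log2(scaled signal + 32) of the 9 genes in OCM1 and in MUM2B; triangles are replicate 1 (1 array per group) and circles the means of replicates 2 and 3 (2 arrays per group). SERPINA3 and A2M lay to the right of 0 in both sets in OCM1, at 1.15 and 5.29 and at 0.60 and 2.62, while C1S changed sign between the sets in both lines.

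Between the lines, the signals of SERPINA3 and A2M were higher on OCM1 than on MUM2B arrays. In wild type cells A2M was 2.89 ± 0.51 higher in OCM1 than in MUM2B on all 12 arrays, and it was the only 1 of the 4 to be called, against 19.3% of all genes called higher and 33.2% in either direction. In the fit of replicates 2 and 3, 3 of 4 passed as higher in OCM1 wild type, against 35.2% of all genes called higher and 64.9% in either direction. These were SERPINA3 by 1.94 ± 0.19, A2M by 3.16 ± 0.13 and C1R by 0.58 ± 0.16. C1R was at or above 100 on all arrays, so its call did not depend on the filter (limma adjusted p = 0.00775), but it was lost without replicate 3 of OCM1 wild type, at 0.40 ± 0.19 (limma adjusted p = 0.0885). The calls of SERPINA3 and A2M followed from the filter and are not read against the share of all genes. In CANT1 cells 3 of 4, again SERPINA3, A2M and C1R, were called higher in OCM1 on 12 arrays, against 21.3% of all genes called higher and 37.5% in either direction. The C1R difference on 12 arrays was 0.68 ± 0.21. Its call was lost without replicate 1 or 2 of MUM2B with CANT1, and without replicate 2 or 3 of OCM1 with CANT1. The contrast uses the OCM1 arrays with CANT1 whose values were known when the list was chosen, so no p-value is given. The same 3 were called on replicates 2 and 3, against 38.3% called higher and 66.5% in either direction. Their differences on replicates 2 and 3 were 7.17, 5.84 and 0.71. For replicate 1, OCM1 minus MUM2B was 0.51 for SERPINA3, 2.37 for A2M and −0.08 for C1R in wild type cells.

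The order of the 4 groups was the same for SERPINA3 and A2M: OCM1 with CANT1, then OCM1 wild type, then the MUM2B groups. The first neighbours in that order overlapped through replicate 1, and the MUM2B groups overlapped with each other. In bulk RNA a larger share of cells with the transcript and more transcript per cell cannot be told apart.

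The other genes of these pathways were described from 8 lists, which were drawn up with earlier results known. In the 12-array fit 0 of 73 tested genes passed for CANT1 in either line by limma, with 7 in OCM1 and 2 in MUM2B at an unadjusted p under 0.05. In the fit of replicates 2 and 3, 17 of 67 (25.4%) passed in OCM1, beside 23.5% of all genes, and 26 of 67 (38.8%) in MUM2B, beside 25.3%. By direction, 13.9% of all genes were called higher and 9.65% lower in OCM1, and 14.5% higher and 10.8% lower in MUM2B, and the counts of each list stand beside these shares. The values that follow are from replicates 2 and 3, each beside its replicate 1 difference.

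Among genes that start or amplify complement, 5 of 17 listed were tested, and 2 rose and 0 fell in each line. C1RL, a C1R-like protease gene adjacent to C1R, had 452, 793 and 812 in OCM1 with CANT1, against 247, 411 and 391 in wild type, and all CANT1 arrays were higher. Its OCM1 difference was 0.95 ± 0.13 (limma adjusted p = 0.000454), with 0.79 on replicate 1, and in MUM2B it was 0.72 ± 0.13 (limma adjusted p = 0.00294), with −0.02 on replicate 1. COLEC12, a scavenger receptor of the collectin family, was 0.58 ± 0.11 higher in OCM1 and 1.02 ± 0.11 higher in MUM2B, but −4.09 and −0.07 on replicate 1. Of the 7 terminal components, C5 to C9, 0 reached the signal filter.

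Of 18 complement regulators 8 were tested. In OCM1, 2 rose and 1 fell. Clusterin (CLU), which holds terminal complexes in solution, was at 0.69 ± 0.11, and CD59, which blocks the membrane attack complex, was at 0.49 ± 0.09. CSMD1, a membrane inhibitor, was at −0.51 ± 0.11. Only CD59 had the same sign on replicate 1, at 1.75, while CLU was at −1.60 and CSMD1 at 1.35. In MUM2B, CD55, which speeds decay of the C3 convertases, was the 1 regulator that rose and 0 fell, at 1.31 ± 0.15 with −1.45 on replicate 1. Of 10 complement receptors 4 were tested, and 1 fell in OCM1 while 1 rose and 1 fell in MUM2B. C1QBP, a binding protein for C1q globular heads, fell by 0.36 in OCM1 and by 0.57 in MUM2B (standard error 0.12 for each), with 0.19 and 0.74 on replicate 1, and ITGB2, the beta chain of the complement receptors of leukocytes, was 1.19 ± 0.11 higher in MUM2B with −0.56 on replicate 1. Of 10 leukocyte markers 2 to 4 reached 100 on an array, with TYROBP at 163 to 240 and CD68 at 89.2 to 523, while PTPRC was at 14.2 to 18.0 and CD14 at 26.2 to 42.6. Their part in the result was not tested.

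Of 27 other acute phase proteins 7 were tested, and 1 rose in OCM1 and 2 in MUM2B. Transferrin (TF), the plasma iron carrier and a protein that falls in the acute phase, had 401, 1130 and 1055 in OCM1 with CANT1, against 249, 164 and 214 in wild type OCM1. All 3 CANT1 arrays were above all wild type arrays, and the difference was 2.36 ± 0.12 (limma adjusted p = 6.62e-07), with 0.62 on replicate 1. TF is also 1 of 10 hepatocyte markers, whose summed signal was 1036 to 1602 in OCM1 with CANT1, against 577 to 856 in wild type. TF is part of that sum and made up most of the difference, and the other markers were at most 176 on any array. Of these markers 1 to 4 reached 100 on an array. TTR was at 116 to 176 and APOA1 at 63.0 to 151, while ALB, FGB and FGG, which encode plasma proteins of hepatocytes, were at 15.0 to 38.0. Their part in the result was not tested. In MUM2B, SERPINA1 (alpha-1-antitrypsin) had 126, 262 and 357 with CANT1, against 103, 111 and 132 in wild type, a difference of 1.15 ± 0.16 (limma adjusted p = 0.000926), with 0.23 on replicate 1, where the CANT1 array lay below the highest wild type array. PTX3, the long pentraxin, was at 0.67 ± 0.11 in MUM2B, with −1.08 on replicate 1.

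A further list held inducers of the acute phase response, receptors and transcription factors, and also inhibitors such as NFKBIA. Of its 28 tested genes, 13 rose and 0 fell in MUM2B on replicates 2 and 3, against 14.5% of all genes called higher there. The risen genes included the inhibitor NFKBIA. In OCM1, 4 rose and 2 fell. The CANT1 effect in OCM1 minus that in MUM2B passed for 6 of the 28, all negative, against 10.6% of all genes called lower. On all 12 arrays 0 of 29 passed in either line. The cytokine gene IL1B had 4875, 10373 and 10814 in MUM2B with CANT1, against 11793, 1975 and 3166 in wild type. Its difference was 2.07 ± 0.19 (limma adjusted p = 0.000168), but −1.27 on replicate 1, where the wild type array was the highest of all. IL1A at 0.86 ± 0.10, NFKBIA, the NF-κB inhibitor, at 0.85 ± 0.10 and RELB, an NF-κB subunit, at 0.84 ± 0.12 likewise rose on replicates 2 and 3 of MUM2B and were at −0.68, −0.89 and −0.53 on replicate 1. SERPINA3 and A2M, below 100 on every MUM2B array, did not pass in that line, and a relation to these genes was not tested. In OCM1, NFKBIZ, a nuclear cofactor of NF-κB, had 1731, 1246 and 1245 with CANT1, against 490, 2839 and 2972 in wild type, a difference of −1.20 ± 0.12 with 1.76 on replicate 1. STAT3, the transcription factor downstream of interleukin-6, rose by 0.64 ± 0.10 in OCM1, with 1.11 on replicate 1. Receptor genes LIFR at 0.93 ± 0.15 and IL6ST at 0.50 ± 0.11 rose there on replicates 2 and 3 and were at −2.79 and −0.23 on replicate 1. IL1A and IL1B did not pass in OCM1, at −0.03 ± 0.10 and −0.02 ± 0.19, with 0.15 and 0.11 on replicate 1.

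Of 25 serpins, A2M relatives and their partners, 12 were tested. In OCM1, 4 rose and 0 fell, and in MUM2B, 2 rose and 3 fell. SERPINA5, the protein C inhibitor, had 133, 923 and 1310 in OCM1 with CANT1, against 60.0, 204 and 230 in wild type, and its groups overlapped through replicate 1. Its difference was 2.19 ± 0.14 (limma adjusted p = 2.76e-06), with 0.85 on replicate 1. SERPINF1 (pigment epithelium-derived factor) had 1862, 1649 and 1604 in OCM1 with CANT1, against 1580, 360 and 471 in wild type, and all CANT1 arrays were higher, at 1.90 ± 0.13 with 0.23 on replicate 1. SERPINI1 (neuroserpin) had 218, 1480 and 1247 with CANT1, against 716, 233 and 232 in wild type, at 2.39 ± 0.11, with the opposite sign on replicate 1, −1.58. SERPINB1, an inhibitor of neutrophil proteases, was at 0.43 ± 0.10 in OCM1 and 0.51 ± 0.10 in MUM2B, with 0.91 and −1.11 on replicate 1. In MUM2B, SERPINE2 (protease nexin-1) rose by 0.93 ± 0.09, with 0.44 on replicate 1. SERPINH1, the collagen chaperone, was at −0.65 ± 0.10 and SERPINB8 at −0.58 ± 0.13, with the opposite sign on replicate 1, 0.56 and 0.49. Of 7 LCN2 partner genes 3 were tested, and the transferrin receptor gene TFRC fell by 0.95 in MUM2B (standard error 0.14), with 0.87 on replicate 1.

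**Figure D4:**
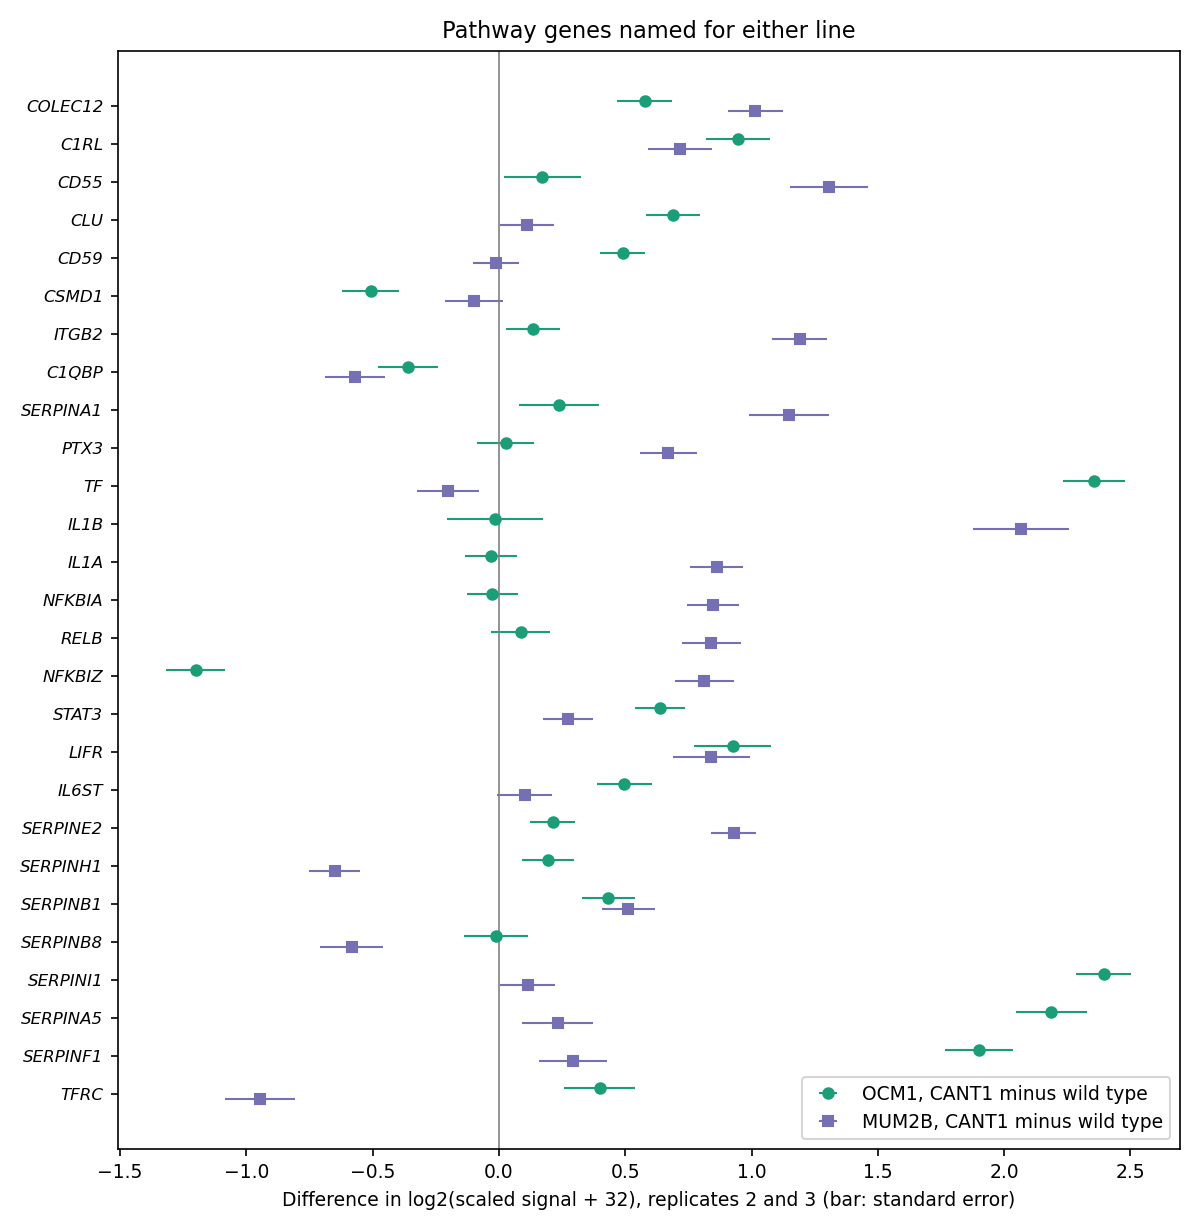
CANT1 minus wild type difference in log2(scaled signal + 32) on replicates 2 and 3 (2 arrays per group) for the pathway genes named for either line; points are limma estimates in OCM1 (circles) and MUM2B (squares) and bars are standard errors. SERPINI1, TF, SERPINA5 and SERPINF1 were at 1.90 to 2.39 in OCM1, and IL1B was at 2.07 in MUM2B.

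Between wild type lines on all 12 arrays, the list of inducers, receptors and transcription factors had 29 tested genes. Of these, 12 were lower and 2 higher in OCM1 than in MUM2B, against 13.9% of all genes called lower and 19.3% called higher. IL1A was at −5.72 ± 0.27 and IL1B at −4.94 ± 0.55. The gene of the interleukin-6 family cytokine LIF was at −3.06 ± 0.18 and the tumour necrosis factor receptor gene TNFRSF1A at −2.44 ± 0.14. For IL1B, LIF and TNFRSF1A the limma adjusted p was at most 0.000138. Of 8 other acute phase genes 1 was higher and 2 lower, TF at 1.29 ± 0.37, PTX3 at −4.27 ± 0.44 and SERPINA1 at −1.17 ± 0.24. In the serpin list 3 of 13 were higher and 1 lower, with SERPINF1 at 3.42 ± 0.38, SERPINE2 at 2.72 ± 0.53, LRPAP1, the chaperone of the A2M receptor LRP1, at 1.21 ± 0.20 and SERPINB8 at −1.15 ± 0.31. On replicate 1 they were at 4.54, 0.64, 0.87 and −1.23, in that order. Among 8 complement regulators, CPN1, a subunit of the anaphylatoxin-cleaving carboxypeptidase N, was at 1.24 ± 0.38, CSMD1 at 1.23 ± 0.36 and CD59 at −1.56 ± 0.27. On replicate 1 these were at 0.08, −0.01 and −2.28, against 1.82, 1.85 and −1.20 on replicates 2 and 3. Among 4 receptors, C1QBP was at 0.83 ± 0.28, the C3a receptor gene C3AR1 at −1.32 ± 0.18 and ITGB2 at −1.26 ± 0.29. IL1A, SERPINA1, C3AR1 and ITGB2 were below 100 on every OCM1 array, and TF and SERPINF1 on every MUM2B array. These genes passed the filter through the other line alone. Their calls between the lines followed from it and are not read against the share of all genes. OCM1 had the higher SERPINA3 and A2M signals and the lower signals of the cytokine and receptor genes IL1A, IL1B, LIF and TNFRSF1A, while 2 of the 29 were higher. Whether these differences are related was not tested.

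As a description, the genes whose values over the 12 arrays, each set centred on its own mean, were most like SERPINA3 were SMIM20, H2BC21 and SERPINA5 (Pearson r = 0.989, 0.981 and 0.980). SERPINA5 is also a chromosomal neighbour of SERPINA3 on chromosome 14 in RefSeq. Of the other neighbours there, SERPINA4, SERPINA9 and SERPINA12 did not reach the filter on replicates 2 and 3. For A2M the closest genes were TRIM48, HPCAL4 and CC2D1A (r = 0.998, 0.988 and 0.987). TRIM48 had 334, 1514 and 1408 in OCM1 with CANT1, against 170, 370 and 350 in wild type, and 31.5 to 43.0 in MUM2B. PZP, which neighbours A2M and encodes another macroglobulin, was at 18.4 to 36.5 on all arrays. C1R was most like TEAD3, YJU2B and TNK2 (r = 0.975, 0.968 and 0.955), and CFB was most like PHF24, RRAD and ZFP36 (r = 0.957, 0.924 and 0.912). CFB, PHF24, RRAD and ZFP36 were all highest on replicate 1 of MUM2B wild type, at 197, 169, 344 and 2846. On the other arrays they were at most 116, 113, 153 and 1269. How far these correlations rest on that array was not tested. SERPINA3 and A2M correlated at r = 0.931, SERPINA3 and CFB at −0.241. All these correlations share the same arrays and the same line and replicate differences.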

How the data were processed

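Total RNA of 12 samples was measured on Affymetrix arrays. The authors deposited 1 value per probe set and array. Per the submitters' processing notes the signal came from MAS5. Neither the log base nor a normalization is given in the sources used here, and the deposited values were read as log2 from their range, with array medians between 6.85 and 6.88 for replicate 1 and between 6.38 and 6.45 for the other arrays. From 2 raised to each value, signals were scaled so that every array had a 2% trimmed mean of 500. The offset of 32 was added before log2. Of 49395 probe sets, 44988 named 1 gene in the platform annotation, and the one with the highest mean scaled signal stood for each of 18132 genes. Genes were tested when 3 or more arrays of the fit had a signal of 100 or above (12715 on 12 arrays, 12095 on replicates 2 and 3) with limma 3.58.1 in R 4.3.3 (lmFit, eBayes), with Benjamini-Hochberg adjusted p under 0.05 as the call. The 12-array fit had group and labelled set as terms (7 residual degrees of freedom), and the fit of replicates 2 and 3 had group alone (4). With 3 arrays per group, the number of arrays limits precision.

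The 9 genes, the pathway and marker lists and the rules were chosen with earlier results of these data known. From each list the text names the genes that passed, up to the 4 with the smallest p, for CANT1 in each line and between the wild type lines, and for each of the 9 genes that were tested the 3 genes most correlated with it. The fits were tested on simulated data. Alternatives were quantile normalization, other offsets and filters, a replicate block or no set term, only the arrays compared, only replicates 2 and 3, array weights, other probe sets and each array left out. The second probe set on replicates 2 and 3 was added after the data were seen. Raw intensity files and protein sequences were not used here.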

Additional observations from a re-analysis of the deposited data

Results flagged for a closer look

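For SERPINA3 and A2M the measured CANT1 difference was larger in OCM1 than in MUM2B on replicates 2 and 3. Both genes were below 100 on every MUM2B array and entered the fit only through the OCM1 arrays. Their values in MUM2B therefore say little about a CANT1 effect in that line. The effect in OCM1 minus that in MUM2B was 5.23 for SERPINA3 and 2.68 for A2M on the log2 scale (2 arrays per group). Both CANT1 arrays of OCM1 in these replicates were above both wild type arrays for each gene, and the MUM2B groups overlapped for both. On the 12-array fit neither difference passed, at 3.94 for SERPINA3 and 2.01 for A2M. The 2 genes were chosen with their OCM1 values known, so these values are no independent evidence.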

How the results depend on the processing

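The number of called genes among the 9 moved with the arrays used. For CANT1 in OCM1 and for the difference between the lines, 0 passed on 12 arrays, 2 passed on replicates 2 and 3 only and 2 with array weights (a fit in which limma did not reach its convergence tolerance), and leaving out 1 array gave 0 to 2, with 2 only without replicate 1 of OCM1 with CANT1. For the wild type lines 1 passed on 12 arrays, 3 on replicates 2 and 3 only, 2 on only the arrays compared and 3 with array weights, and leaving out 1 array gave 1 to 2. The 2 calls arose without replicate 1 of MUM2B wild type or of OCM1 with CANT1. On replicates 2 and 3, 0 passed in MUM2B, 1 (C1S) with no filter, and 0 to 1 with 1 array left out (C1R without replicate 2 of MUM2B with CANT1). Between CANT1 lines 3 passed on 12 arrays, 2 to 3 with 1 array left out and 4 with array weights, while on replicates 2 and 3 there were 3, and 4 with quantile normalization. The causes were not tested.

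Signs turned only for differences that were not called. For CANT1 in MUM2B, replicates 2 and 3 only gave 0.06 for SERPINA3 and 0.14 for CFB, array weights gave 0.19 (SERPINA3), 0.16 (A2M) and 0.11 (CFB), and C1R was at −0.013 with quantile normalization and −0.066 on its second probe set. The difference of CFB between the lines was −0.23 on replicates 2 and 3 only and −0.32 with array weights, and its wild type line difference 0.05 and 0.07. In the fit of replicates 2 and 3, SERPINA3 in MUM2B was −0.038 on its second probe set and the CFB line difference in wild type cells −0.022 with quantile normalization. Leaving out 1 array on 12 arrays gave −0.72 to 0.78 for SERPINA3, −0.46 to 0.34 for A2M, −0.26 to 0.17 for CFB and −0.13 to 0.29 for C1R in MUM2B. For CFB it gave −0.20 to 0.026 in OCM1, −0.24 to 0.19 for the difference and −0.40 to 0.024 between wild type lines. On replicates 2 and 3 it gave −0.16 to 0.28 for SERPINA3 and −0.20 to 0.078 for A2M in MUM2B, −0.14 to 0.073 for CFB in OCM1, −0.10 to 0.35 for the C1R difference and 0.00 to 0.10 for CFB between wild type lines.

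On replicates 2 and 3 SERPINA3 stayed at 5.05 to 5.53 and A2M at 2.46 to 2.78 in OCM1 under all 16 alternatives run for each. Both genes were chosen on this contrast and the alternatives reuse the same arrays, so these ranges are no independent evidence. With the replicate block 0 of the 4 genes passed in OCM1 on 12 arrays and SERPINA3 was at 3.91, as without it, while the count over all genes was 8, against 22. Deviations of same-numbered arrays correlated at −0.13 to 0.22 on replicates 2 and 3. On 12 arrays, where deviations from the group mean also hold the difference between the labelled sets, they correlated at 0.034 to 0.623, so not every pair was over the 0.1 asked for, and the arrays were not taken as paired. Over all genes, the alternatives gave 0 to 3060 calls for CANT1 in MUM2B, 1 to 3733 in OCM1, 3 to 2786 for the difference, 3071 to 9684 between wild type lines and 3563 to 10992 between CANT1 lines on 12 arrays. Leaving out 1 array gave 0 to 9, 5 to 148, 0 to 40, 2924 to 5569 and 3476 to 6138, and on replicates 2 and 3 the lowest counts were 1031 in MUM2B, 1343 in OCM1 and 1727 for the difference. Signals below 100 limit what can be said of C3, CFI, LCN2, SAA1 and C1S.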
